A study of Mus musculus with 45 samples.

Results

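The 9 genes described here encode subunits of glutamate receptors: the AMPA receptor subunits Gria1, Gria2, Gria3 and Gria4, the NMDA receptor subunits Grin1, Grin2a and Grin2b, and the metabotropic receptors Grm3 and Grm5. They were chosen by symbol, as a list of names, with earlier results of these data known. All 9 were found among the 15897 genes measured in the mouse hippocampus. The values come from poly(A) RNA sequencing of 45 female C57Bl/6J mice of 4 genotypes. AwTw mice were wild type, A+Tw mice carried the APP/PS1 transgene, AwT+ mice carried tau P301L, and A+T+ mice carried both. The mouse PrP promoter drives the APP/PS1 transgene and the CaMKII promoter the tau transgene, and the wild-type mice were littermates. From 7 months of age until sacrifice at 13 months, the mice were fed either a standard diet (STD, 5% fat and 0% cholesterol) or a typical Western diet (TWD, 21% fat, 0.15% cholesterol and 35% sucrose). Every group on TWD held 6 mice, and on STD there were 6 mice for AwTw, 6 for AwT+, 5 for A+Tw and 4 for A+T+, each a separate animal. The labels put 20 mice in batch 0 and 25 in batch 1, without saying what a batch was, and batch 0 held a single A+Tw mouse on STD.

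Glutamate is the main excitatory transmitter of the hippocampus. AMPA receptors are tetramers that carry most of the fast current at its synapses, and the GRIA2 subunit, whose transcript is edited, makes them nearly impermeable to calcium. NMDA receptors need the obligatory subunit GRIN1 together with GRIN2 subunits, of which GRIN2B prevails early in life and GRIN2A is added as synapses mature, and they admit the calcium that starts long-term potentiation. The metabotropic receptors are coupled to G proteins: GRM5 acts through Gq at the edge of the postsynaptic density, and GRM3 acts through Gi in astrocytes and neurons.

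The ionotropic members share a channel-gate motif at the outer end of the third membrane segment, and the 27 bases that encode it are shown for 6 of them because they allow these genes to be compared base by base. The sequences were read from the GENCODE M21 transcripts (GRCm38), 5′ to 3′ on the coding strand, and capitals mark the last base of a codon where it is G or C.
Gria1, chromosome 11, 57283571 to 57283597, plus strand, exon 12 of 16: tcataCacagcCaaCctGgctgcCttC
Gria2, chromosome 3, 80702569 to 80702595, minus strand, exon 12 of 16: tcCtaCacGgctaaCttagctgcCttC
Gria3, chromosome X, 41620858 to 41620884, plus strand, exon 12 of 16: tcCtaCactgcaaaCcttgctgctttC
Gria4, chromosome 9, 4462017 to 4462043, minus strand, exon 13 of 17: tcCtaCactgctaatctGgctgcattC
Grin1, chromosome 2, 25297199 to 25297225, minus strand, exon 15 of 21: tcCtaCactgcCaaCctGgcagcCttC
Grin2a, chromosome 16, 9653447 to 9653473, minus strand, exon 10 of 14: agttaCacagcCaaCctGgctgcCttC
Grin1 had G or C at the last base of 7 of the 9 codons, Gria1, Gria2 and Grin2a at 6, and Gria3 and Gria4 at 4. The stretch of Gria2 differed at 5 bases from those of Gria1, Gria3, Gria4 and Grin1 and at 7 from that of Grin2a. Over whole transcripts the members differed more in base composition. Gria2 had a GC content of 40.21%, lower than all but 3.3% of genes, and Grin1 had 59.18%, higher than 92.0% of genes. The other 7 members lay between 43.71% (Gria4) and 49.86% (Gria1), below the median of all genes, 50.95%.

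Promoter sequence was found in the RefSeq table (GRCm38.p6) for 4 of the 9 members, Gria2, Gria4, Grin1 and Grm3. The promoters of Gria2 and Grin1, 300 bases around the start of each gene, are shown because these genes moved in opposite directions between the diets. Capitals mark the letters GGGCGG, the Sp1 box.
Gria2, chromosome 3, 80802786 to 80803085, minus strand: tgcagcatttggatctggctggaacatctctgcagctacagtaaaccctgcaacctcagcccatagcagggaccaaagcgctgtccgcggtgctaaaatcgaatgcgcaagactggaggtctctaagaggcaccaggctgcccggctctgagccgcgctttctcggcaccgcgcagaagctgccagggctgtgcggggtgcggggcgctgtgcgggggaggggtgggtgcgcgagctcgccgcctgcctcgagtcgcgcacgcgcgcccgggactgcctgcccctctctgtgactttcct
Grin1, chromosome 2, 25319138 to 25319437, minus strand: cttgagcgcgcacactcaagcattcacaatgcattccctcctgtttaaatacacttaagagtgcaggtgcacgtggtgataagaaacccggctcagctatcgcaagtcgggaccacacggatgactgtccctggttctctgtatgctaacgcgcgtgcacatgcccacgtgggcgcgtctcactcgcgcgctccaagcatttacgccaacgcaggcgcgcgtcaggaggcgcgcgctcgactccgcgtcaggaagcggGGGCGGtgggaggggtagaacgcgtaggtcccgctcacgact
Both are rich in GC, 65.7% in Gria2 and 60.7% in Grin1, so these windows did not differ in the way the transcripts did. The Sp1 box, searched on both strands, occurred 1 time in the Grin1 window, 2 times in that of Grm3 and 0 times in those of Gria2 and Gria4, and 35.66% of the 32851 promoters in the table hold it. None of the 4 windows held TGACGTCA (1.79% of promoters), TATAAA (13.62%) or GCGCATGCG (1.75%).

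The members lie on 9 chromosomes (GRCm38, GENCODE M21, all protein coding), from Grin1, which spans 28.0 kb (chromosome 2, 25291181 to 25319187), to Grm5, which spans 550.7 kb (chromosome 7, 87584168 to 88134907). Grm3 lies on chromosome 5 (9485541 to 9725170) and Gria2 on chromosome 3 (80681450 to 80802835).

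The deposited values are variance-stabilized and on a log2-like scale, so a difference of 1 is close to a doubling for well expressed genes such as these. All 9 members were well above the low end of the table, with means over the 45 mice from 8.76 ± 0.36 (SD) for Grm3 to 13.83 ± 0.16 for Gria1. Levels of different genes can be compared only per length. As the mean value minus log2 of the mean coding transcript length in kb, Gria1 stood highest at 11.78, followed by Grin1 at 11.13 and Grin2b at 9.48, and Gria4 was lowest at 6.86. Gria3 (8.85), Gria2 (8.81) and Grin2a (8.27) lay in between, above Grm5 (7.93) and Grm3 (7.15). The length used matters most for Grin2b, whose longest transcript is 24.06 kb against a mean of 5.99 kb. With the longest transcript it fell from rank 3 to rank 5, at 7.47.

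App, the gene of the A+ transgene, was between 15.05 and 15.80 in the 21 A+ mice and between 14.29 and 14.86 in the 24 Aw mice, so the groups did not overlap. Mapt, the mouse tau gene, was between 12.59 and 13.40 in T+ mice and between 12.61 and 13.16 in Tw mice and overlapped between them. The tau transgene is human, and these values come from reads assigned to mouse transcripts. From reads aligned to human transcripts, the authors reported significantly higher human MAPT in AwT+ and A+T+ mice. All 10 neuronal markers were well expressed, with a mean of at least 11.78 for each. In bulk tissue, fewer cells of a type and less RNA per cell cannot be told apart.

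The first question was whether the diet changed the receptor genes irrespective of genotype. TWD mice had lower Grm5, Gria2, Gria3, Gria4, Grin2a and Grm3 and higher Grin1 than STD mice, while Grin2b and Gria1 did not pass the test. In all 7 of 9 members passed the test, 6 lower and 1 higher, at an adjusted p below 0.05 (limma with terms for diet, genotype and batch in 45 mice, Benjamini-Hochberg over all genes). Of all genes 29.4% passed the same test, 13.4% lower and 16% higher. The median difference of the members was -0.39, against -0.0014 over all genes. Because the list was chosen with earlier results of these data known, the contrast with all genes is a description only. The plot of each mouse by group shows the spread behind these differences.

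**Figure D1:**
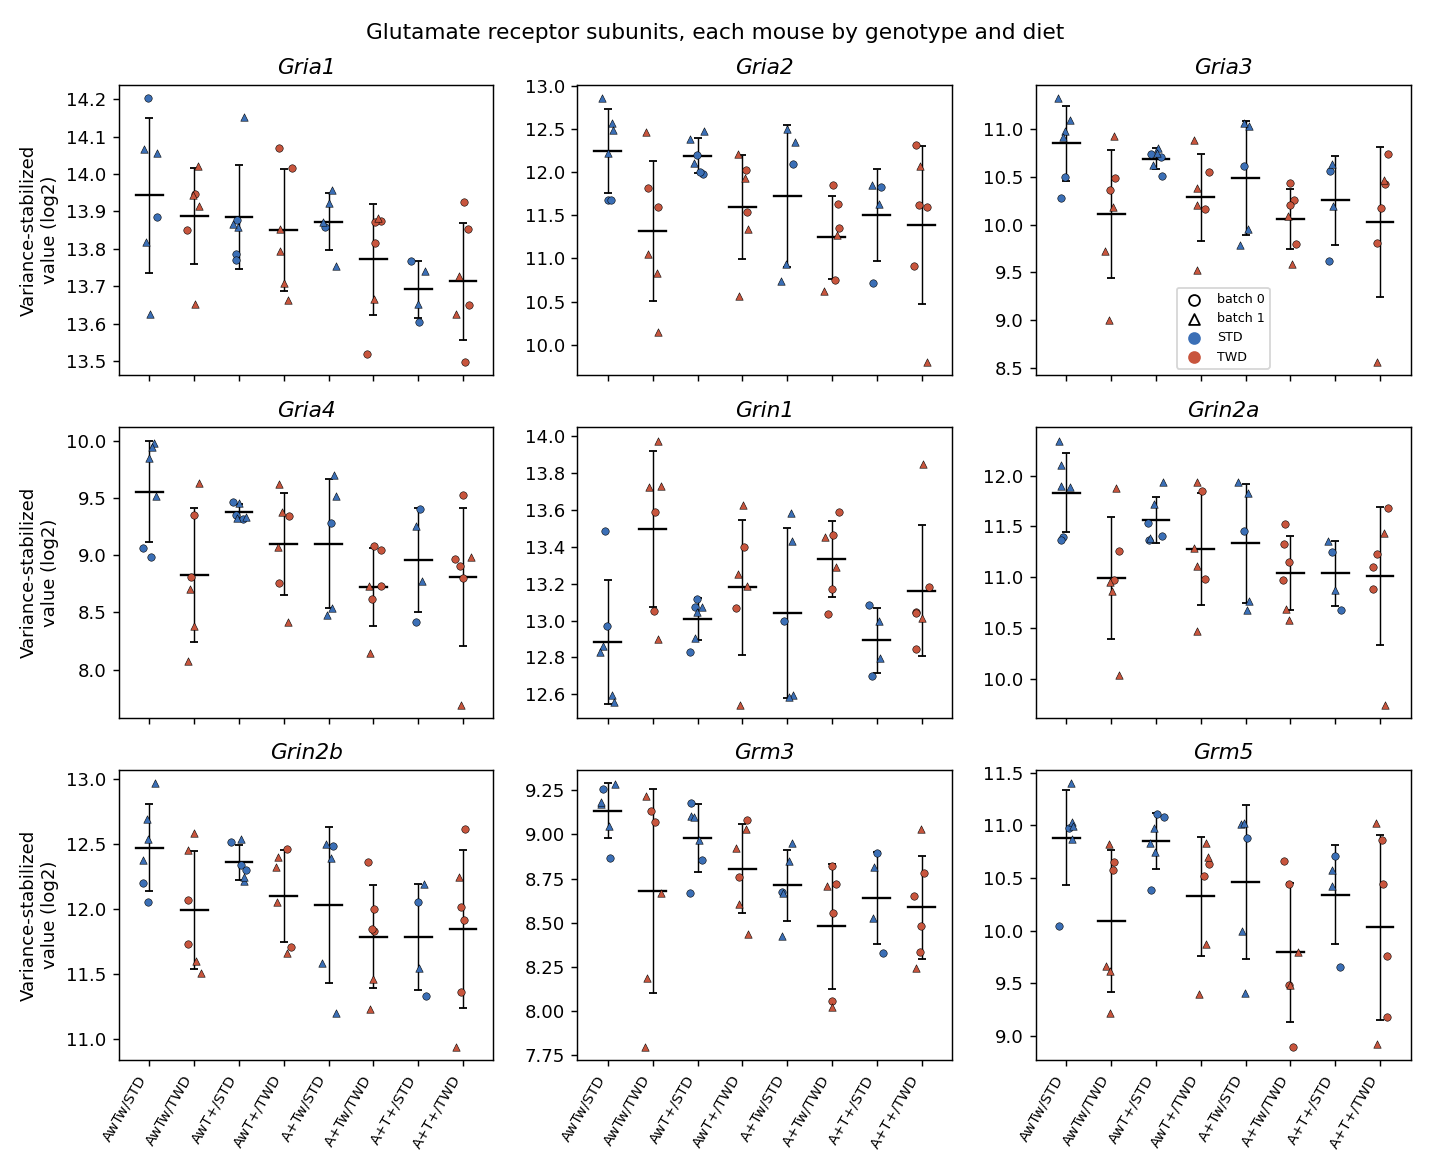
Variance-stabilized value (log2) of each of the 9 genes in each of the 45 mice, by genotype and diet; blue is STD, red is TWD, circles are batch 0, triangles are batch 1, and bars are the group mean with its SD. Gria2 was highest on average in AwTw/STD (12.25) and Grin1 in AwTw/TWD (13.50), and the diets overlap for every gene.

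Among the AMPA receptor subunits, Gria2 ranged from 10.72 through a median of 12.10 to 12.86 in the 21 STD mice and from 9.80 through 11.56 to 12.47 in the 24 TWD mice. The diets overlapped, and 4 TWD mice lay below the lowest STD mouse. Its fitted difference was -0.56 ± 0.19 (SE, adjusted p = 0.0247, limma), a TWD to STD ratio of 0.676 (95% CI 0.522 to 0.876). Gria3, on the X chromosome, ranged from 9.62 through 10.63 to 11.32 on STD and from 8.56 through 10.21 to 10.92 on TWD, with a difference of -0.47 ± 0.15 (SE, adjusted p = 0.0206, limma). Gria4, the least abundant of the 4 per length, had a median of 9.33 on STD and 8.85 on TWD and a difference of -0.41 ± 0.14 (SE, adjusted p = 0.0259, limma). Again 4 TWD mice lay below every STD mouse for each of these genes. Gria1, which forms the principal GRIA1/GRIA2 receptor of CA1 pyramidal cells with Gria2, had a median of 13.86 on STD and 13.85 on TWD. Its difference of -0.05 had a 95% CI from -0.14 to 0.04 and did not pass the test (adjusted p = 0.420, limma). After quantile normalization it was -0.14 and passed (adjusted p = 0.0304, limma), which made 8 of 9 members, with 30.4% of all genes passing.

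Grin1, the obligatory NMDA receptor subunit, was the only member higher on TWD. It ranged from 12.56 through a median of 12.97 to 13.59 on STD and from 12.54 through 13.22 to 13.98 on TWD. The ranges overlapped, but 7 of the 24 TWD mice lay above the highest STD mouse. The difference was 0.34 ± 0.10 (SE, adjusted p = 0.0161, limma), a ratio of 1.27 (95% CI 1.11 to 1.45). Grin2a, the mature NMDA receptor subunit, had medians of 11.41 on STD and 11.10 on TWD and a difference of -0.39 ± 0.15 (SE, adjusted p = 0.0400, limma). Grin2b had medians of 12.30 and 11.96, and its difference of -0.25 ± 0.12 (SE) did not pass the test (adjusted p = 0.110, limma). Some reads of Grin1 may come from Grin1os, an antisense RNA whose exons cover 13.5% of the exonic bases of Grin1; it has no row of its own in the table, and whether strand was used in assigning reads is not given in the sources used here.

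Grm5, the postsynaptic Gq-coupled receptor, showed the lowest ratio of the 9. It ranged from 9.40 through a median of 10.87 to 11.40 on STD and from 8.90 through 10.16 to 11.02 on TWD, and 5 TWD mice lay below the lowest STD mouse. The difference was -0.60 ± 0.17 (SE, adjusted p = 0.0172, limma), a ratio of 0.660 (95% CI 0.517 to 0.842). Grm3, the Gi-coupled receptor, had medians of 8.89 on STD and 8.69 on TWD and a difference of -0.25 ± 0.09 (SE, adjusted p = 0.0430, limma). Leaving out 1 mouse at a time, Gria2, Gria3, Grin1 and Grm5 passed the test in all 45 fits and Gria4 in 44, whereas Grin2a passed in 26 and Grm3 in 23.

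The differences were not of the same size in both batches. In batch 1 alone, 8 of 9 members passed the test (all genes, 40.9%), with a difference of -0.98 for Gria2, -0.84 for Grm5 and 0.49 for Grin1 and a median of -0.69. In batch 0 alone, 0 of 9 passed, 0 of 9 had an unadjusted p below 0.05 and 0% of all genes passed (limma), with -0.09 for Gria2, -0.28 for Grm5 and 0.18 for Grin1 and a median of -0.09. Grin1 was higher and Grm5 lower on TWD in both batches, and in the fits of each batch alone only Gria1 of the 9 members turned its sign, at 0.03 in batch 0. A test of the diet difference in batch 1 minus that in batch 0, added after seeing the data, called 0 of 9 members and 0% of all genes (limma), and in that fit Grin2a too was above 0 in batch 0 (0.05). At an unadjusted p below 0.05 were 4 members, Gria2 (-0.92), Gria3 (-0.72), Gria4 (-0.63) and Grin2a (-0.77), and 28% of all genes. None of the 4 passed after adjustment, with Grin2a at an adjusted p of 0.125 and Gria2 at 0.128.

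**Figure D2:**
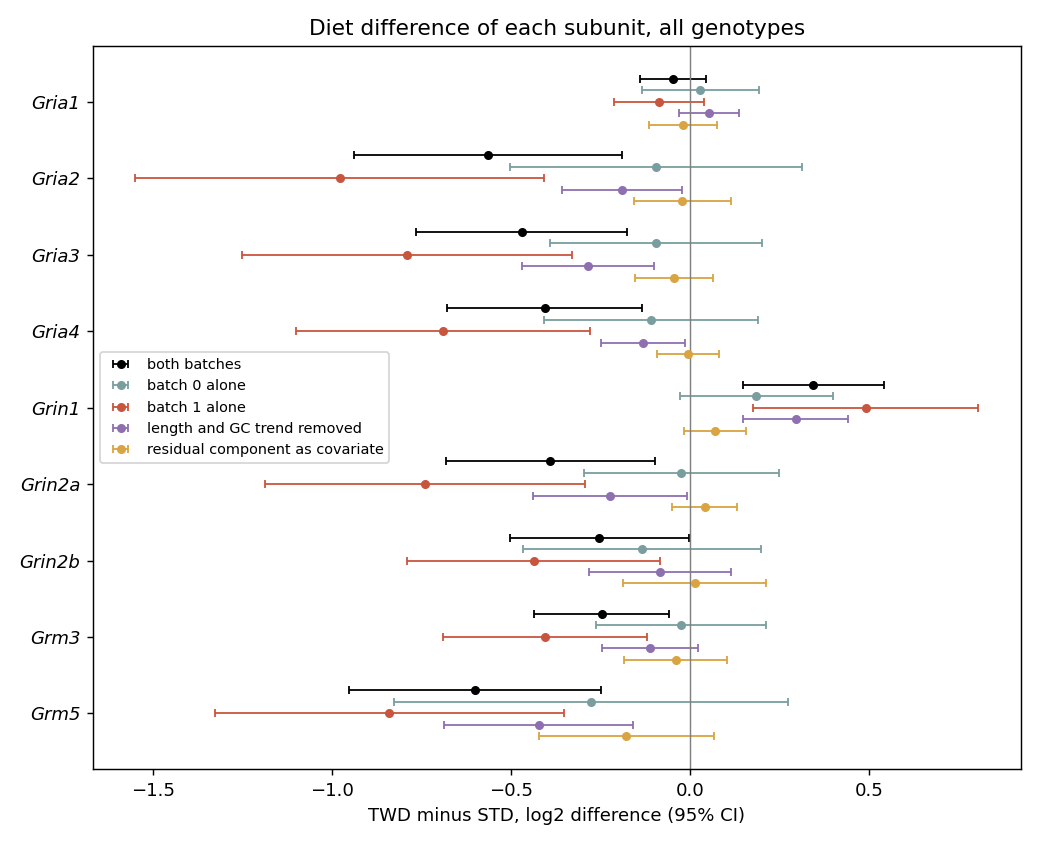
TWD minus STD log2 difference of each gene over all genotypes, with 95% CI, under 5 settings of the fit: both batches, batch 0 alone, batch 1 alone, after removal of a length and GC trend, and with the first residual component as a covariate. In batch 1 the difference of Gria2 was -0.98, in batch 0 it was -0.09, and with the component as a covariate the intervals of all 9 genes include 0. The score of that component keeps group differences, so the fit with it can remove a diet difference by construction.

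Most members varied together from mouse to mouse, also within groups. Over the 45 mice the Pearson correlation of Gria2 was 0.969 with Gria3, 0.945 with Gria4, 0.949 with Grin2a and 0.915 with Grm5, and that of Gria2 with Grin1 was -0.832. With group and batch means removed the same pairs gave 0.966, 0.929, 0.944, 0.890 and -0.868. These are descriptions without a test, and the values of a mouse come from the same library. Grin2b was less close, at 0.706 with Gria2 and 0.362 with Grm3 once group and batch means were removed. Over the 45 mice Gria1 stood apart, with values from -0.068 (Grin1) to 0.499 (Grm3). The same pattern runs through much of the transcriptome. The gene weights of the first residual component came from values with group and batch means removed, over all genes with the members included. Its score for a mouse applied these weights to the values before that removal, so group differences remain in it. The score had a correlation of -0.955 with Gria2, -0.954 with Gria3, -0.965 with Gria4, -0.961 with Grin2a, 0.905 with Grin1 and -0.316 with Gria1. For Grm5 the correlation was -0.831, for Grm3 -0.77 and for Grin2b -0.735. The median score was -0.51 in STD mice and 0.26 in TWD mice, on a scale of SD units. With this component as a covariate, 0 of 9 members passed the diet test, 0 had an unadjusted p below 0.05 and 0% of all genes passed, and the difference of Gria2 was -0.02 against -0.56. Because the score keeps group differences, this fit can remove a diet difference by construction. Whether the component itself carries an effect of the diet was not tested.

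**Figure D3:**
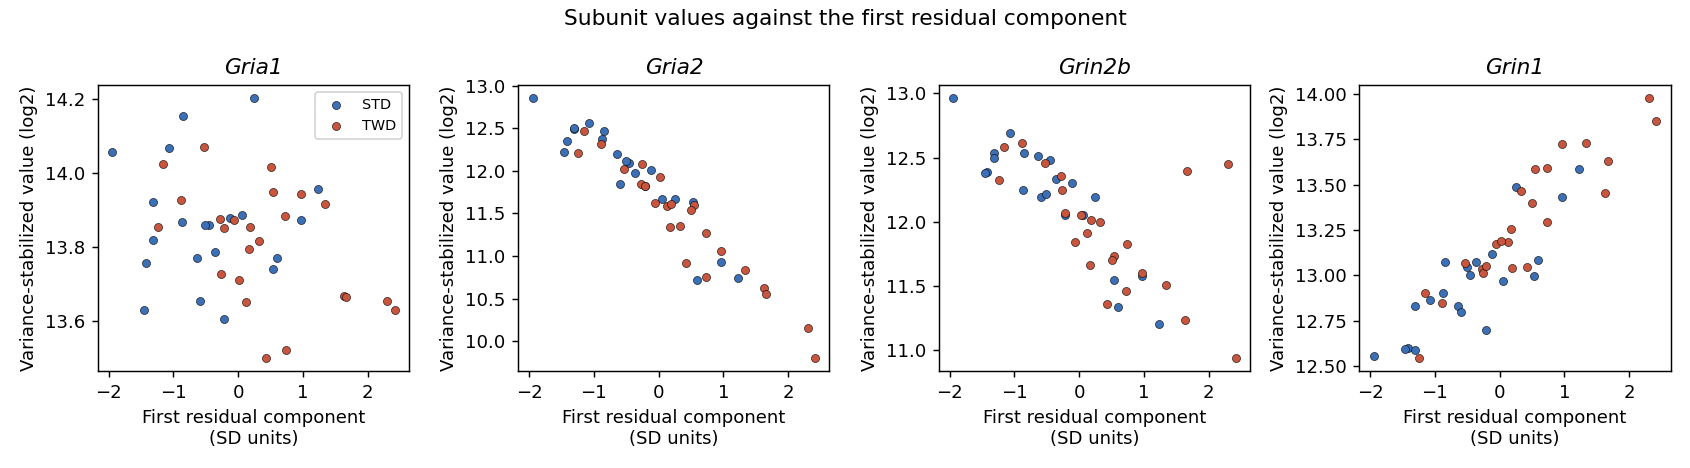
Variance-stabilized value (log2) of Gria1, Gria2, Grin2b and Grin1 in each mouse against the score of the first residual component in SD units; blue is STD and red is TWD. Gria2 falls along the component (r = -0.955) and Grin1 rises (r = 0.905), while 2 TWD mice at the right of the Grin2b panel keep values of 12.45 and 12.40.

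Of the 4 mice with the highest scores on this component, 2 had low values of most members but not of Grin2b. In AwTw/TWD replicate 3, Gria2 (10.15), Gria3 (9.001), Gria4 (8.07) and Grin2a (10.04) were each the second lowest of 45, Grm3 (7.79) was the lowest and Grin1 (13.98) the highest, but Grin2b was 12.45. AwT+/TWD replicate 3 showed the same, with Gria2 at 10.56 and Grin2b at 12.40. In A+T+/TWD replicate 1, which had the highest score, Grin2b (10.94) was the lowest of 45 along with Gria2 (9.80), Gria3, Gria4 and Grin2a. In A+Tw/TWD replicate 2 Grin2b (11.23) was low together with Gria2 (10.62) as well.

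Transcript GC content and length moved with the diet differences, and their part in them was not tested. Among the members the gene of highest GC content, Grin1, was the one that was higher on TWD, and the gene of lowest GC content, Gria2, had the second lowest difference. The members between them did not follow the order of GC content. Grm5, at 47.94%, had the lowest difference (-0.60), and Grm3, at 47.59%, had -0.25. Across the 15695 genes with a known transcript, which are not independent replicates, the diet difference had a Spearman correlation of 0.624 with GC content and -0.442 with transcript length. Removing such a trend from the values of each mouse, an alternative added after seeing the data, left 3 members past the test, Grin1 (0.30, adjusted p = 0.0195), Grm5 (-0.42, adjusted p = 0.0292) and Gria3 (-0.28, adjusted p = 0.0346, limma), where 14.5% of all genes passed. Gria2 went to -0.19 (adjusted p = 0.104, limma), and Gria1 turned to 0.05 without passing the test.

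**Figure D4:**
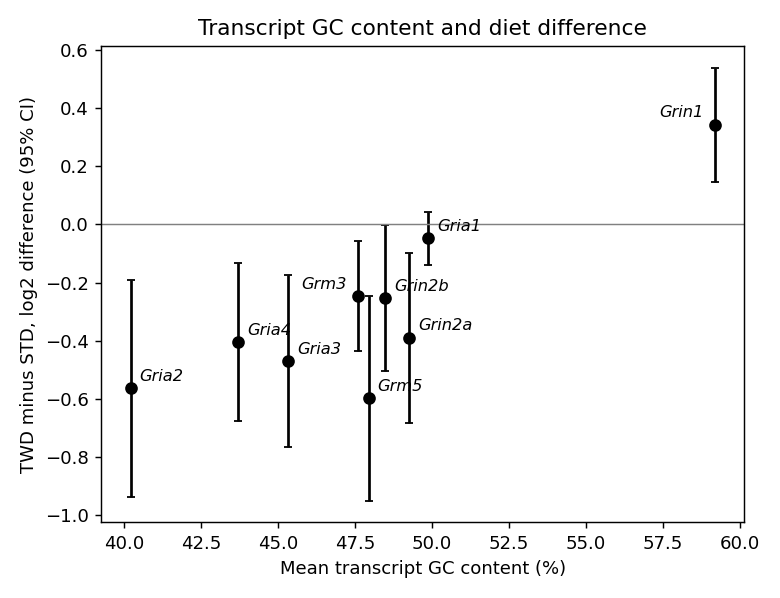
TWD minus STD log2 difference over all genotypes with its 95% CI against the mean GC content of the transcripts (%), 1 point for each of the 9 genes. Grin1, at 59.18%, is the point above 0, and Gria2, at 40.21%, lies at the left at -0.56.

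The next comparison asked for the effect of diet within each genotype. In AwTw mice, 2 of 9 members passed the test, with 9.35% of all genes passing. Grin1 ranged from 12.56 through a median of 12.85 to 13.49 on STD and from 12.90 through 13.66 to 13.98 on TWD, with 4 of 6 TWD mice above every STD mouse and a difference of 0.61 ± 0.19 (SE, adjusted p = 0.0498, limma). Grin2a ranged from 11.37 through 11.90 to 12.34 on STD and from 10.04 through 10.97 to 11.88 on TWD, with 5 of 6 TWD mice below every STD mouse and a difference of -0.84 ± 0.27 (SE, adjusted p = 0.0498, limma). Both sat at the threshold, and leaving out 1 mouse took the count to 0 for 32 of the 45 mice, with 0 of all genes passing, and to at most 8, without AwTw/TWD replicate 5, when 38.2% of all genes passed. Gria2 (-0.93, adjusted p = 0.0628) and Grm5 (-0.79, adjusted p = 0.0845) had differences as large that did not pass (limma). In batch 0 alone 0 of 9 passed, 0 had an unadjusted p below 0.05 and 0% of all genes passed, with 0.03 for Gria2, 0.09 for Grin1 and -0.26 for Grin2a. In batch 1 alone 7 of 9 passed (25% of all genes), with -1.41, 0.87 and -1.12.

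In each of the transgenic genotypes 0 of 9 members passed the diet test, 0 had an unadjusted p below 0.05 and 0% of all genes passed (limma). The unadjusted threshold was met by 7.44% of all genes for AwT+, 4.43% for A+Tw and 2.57% for A+T+. The mean of Gria2 was 12.19 ± 0.20 (SD) on STD and 11.60 ± 0.60 on TWD for AwT+. It was 11.73 ± 0.83 on STD and 11.25 ± 0.48 on TWD for A+Tw, and 11.51 ± 0.54 on STD and 11.38 ± 0.91 on TWD for A+T+. Grm5 was lower on TWD by mean in all of these, without passing the test. Its mean was 10.85 ± 0.27 on STD and 10.33 ± 0.56 on TWD for AwT+, 10.46 ± 0.73 on STD and 9.79 ± 0.66 on TWD for A+Tw, and 10.34 ± 0.47 on STD and 10.03 ± 0.88 on TWD for A+T+. The 5 A+Tw/STD mice were spread widely, with Gria2 at 12.35, 10.74, 12.50, 12.10 and 10.93, and the 4 A+T+/STD mice at 11.64, 10.72, 11.82 and 11.85. Whether the diet effect differed between genotypes was tested directly: the 3 interactions of diet with a transgenic genotype, each set against AwTw, called 0 of 9 members, none had an unadjusted p below 0.05, and 0% of all genes passed (limma). Of all genes, 4.02% met the unadjusted threshold for AwT+, 2.21% for A+Tw and 6.3% for A+T+. The interaction of Grin2a with A+T+ came nearest, at 0.80 (95% CI -0.03 to 1.63, adjusted p = 0.560, limma).

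In the order of the 8 group means, AwTw/STD stood highest for 8 members and lowest for Grin1. The means of Gria2 spanned from 12.25 ± 0.49 (SD) in AwTw/STD to 11.25 ± 0.48 in A+Tw/TWD, and those of Grm5 from 10.88 ± 0.45 to 9.79 ± 0.66 in the same groups. Grin1 spanned from 12.88 ± 0.34 in AwTw/STD to 13.50 ± 0.42 in AwTw/TWD. In none of the 9 genes did neighbours in this order differ by more than the larger of their SDs, over 7 neighbouring pairs for each gene.

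A+ against Aw mice, across both diets, addressed the amyloid genotype. All 9 members were lower in A+ mice, with a median of -0.30 against -0.02 over all genes, but 0 of 9 passed the test, where 3.69% of all genes did (limma). Of the genes that passed 82.6% were higher in A+ mice, and of those that passed after removal of the length and GC trend 62.5% were. Grm3 came nearest at -0.30 ± 0.09 (SE, adjusted p = 0.0703, limma), followed by Grin2b at -0.36 ± 0.13 (SE, adjusted p = 0.109, limma) and Gria1 at -0.13 ± 0.05 (SE, adjusted p = 0.113, limma), and 6 of 9 had an unadjusted p below 0.05, as did 15% of all genes. Within batches Grm3 was -0.42 in batch 0 and -0.27 in batch 1, Grin2b was -0.11 and -0.59, and Gria1 was -0.19 and -0.11. With the residual component as a covariate 3 of 9 passed (6.81% of all genes), Grin1 at -0.15 (adjusted p = 0.00855), Gria4 at -0.14 (adjusted p = 0.0178) and Grm3 at -0.21 (adjusted p = 0.0463, limma), and after removal of the length and GC trend 2 of 9 passed (5.74% of all genes), Gria4 (-0.20) and Grm3 (-0.25).

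The tau genotype was compared in the same way. For T+ against Tw mice 0 of 9 passed, 0 had an unadjusted p below 0.05 and 0.0126% of all genes passed (limma), and the differences ran from -0.13 (Grin1) to 0.08 (Grm5). Of all genes 4.91% had an unadjusted p below 0.05 there. With AwTw as the reference on STD, 0 of 9 passed for AwT+ (0% of all genes, 0 members at an unadjusted p below 0.05), for A+Tw (0.925%, 1 member) and for A+T+ (1.32%, 5 members). At that unadjusted threshold were 2.39% of all genes for AwT+, 5.66% for A+Tw and 14.3% for A+T+. For A+T+ 8 of 9 were lower, with Grin2a at -0.81 (95% CI -1.43 to -0.19) and Grin2b at -0.70 (95% CI -1.24 to -0.15). On TWD 0 of 9 passed for AwT+ (0% of all genes, 0 members at an unadjusted p below 0.05), A+Tw (0.824%, 0 members) and A+T+ (0.73%, 1 member), with medians over the members of 0.17, -0.13 and -0.12 (limma). The unadjusted threshold was met on TWD by 3.04% of all genes for AwT+, 5.2% for A+Tw and 7.76% for A+T+. The comparisons on a diet share their AwTw mice.

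The balance of subunit transcripts was followed as the difference of 2 log values in the same mouse. These are RNA values and do not measure the composition of receptors. The ratios were not tested with the residual component as a covariate or after removal of the length and GC trend. Gria1 minus Gria2 was 1.897 ± 0.58 (SD, n = 21) on STD and 2.42 ± 0.61 (n = 24) on TWD. The difference of 0.52 passed a permutation test within genotype and batch (p = 0.00733, adjusted p = 0.0489 over 20 tests). Grin2b minus Grin1 fell by 0.61, from -0.76 ± 0.67 to -1.36 ± 0.68 (permutation p = 0.00521, adjusted p = 0.0489), and Grm3 minus Grm5 rose by 0.35, from -1.78 ± 0.34 to -1.42 ± 0.41 (permutation p = 0.00363, adjusted p = 0.0489). Grin2a minus Grin2b, the mature over the juvenile NMDA receptor subunit, was -0.72 ± 0.16 on STD and -0.85 ± 0.44 on TWD and did not pass (permutation p = 0.285, adjusted p = 0.451). With 1 mouse left out the calls were lost in 24, 22 and 21 of 45 fits, in this order. Within batches 0 of the 4 pooled ratios passed: Gria1 minus Gria2 differed by 0.17 in batch 0 and 0.81 in batch 1, Grin2b minus Grin1 by -0.34 and -0.83, and Grm3 minus Grm5 by 0.29 and 0.41. Within single genotypes none passed the exact permutation test after adjustment, with AwTw nearest for Grin2b minus Grin1 (-1.09, p = 0.0238, adjusted p = 0.119).

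**Figure D5:**
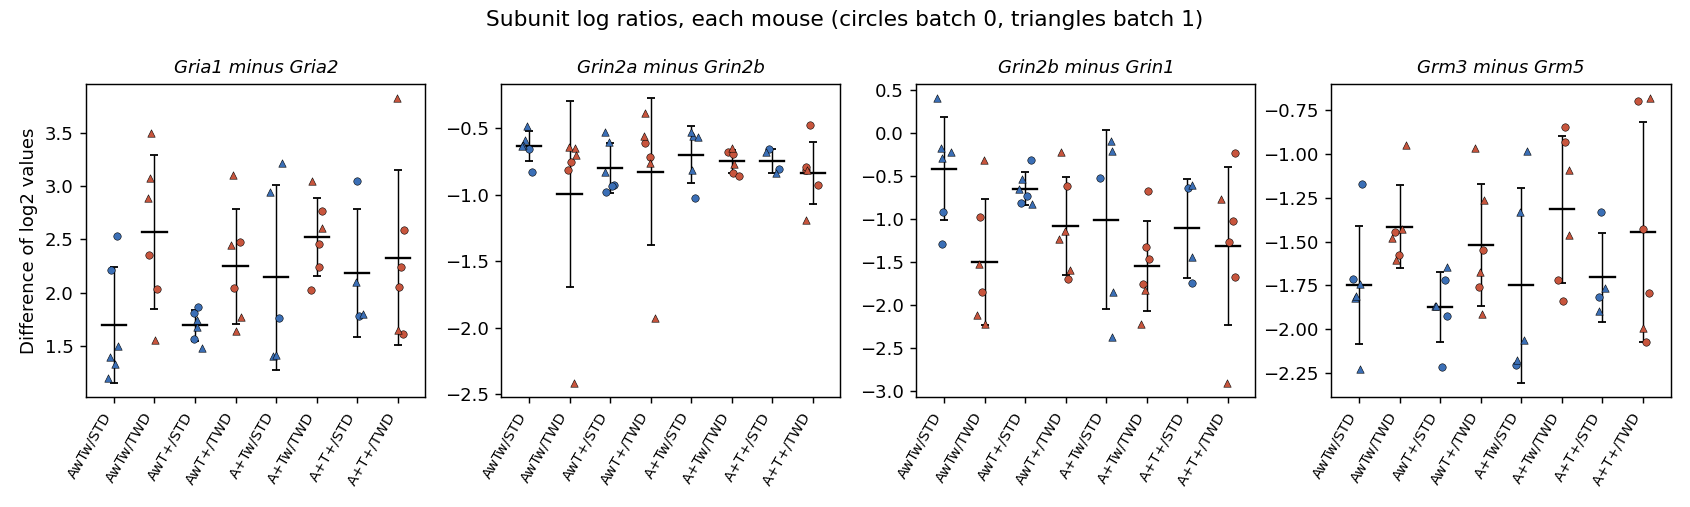
Difference of 2 log2 values in each mouse for Gria1 minus Gria2, Grin2a minus Grin2b, Grin2b minus Grin1 and Grm3 minus Grm5, by group; blue is STD, red is TWD, and bars are the mean with its SD. Over all genotypes Gria1 minus Gria2 averaged 1.897 on STD and 2.42 on TWD, and the lowest points for Grin2a minus Grin2b are AwTw/TWD replicate 3 and AwT+/TWD replicate 3.

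Genes that work with these receptors were counted in the same diet test over all genotypes, as lists for which no set test was run. The share of all genes that passed was 29.4%, with 16% higher and 13.4% lower, and their median was -0.0014. Of 15 partners of the AMPA receptor, 2 were higher and 2 lower on TWD, with a median of 0.09. Olfm1, a secreted olfactomedin, was higher (0.18, adjusted p = 0.0161), and Frrs1l, needed for AMPA receptor assembly (-0.40, adjusted p = 0.0175), and Shisa6, an auxiliary subunit that slows receptor desensitization (-0.37, adjusted p = 0.0182, limma), were lower. Of 17 other receptor subunits and NETO proteins, 1 was higher and 6 were lower, with a median of -0.15. Grm2, a presynaptic Gi-coupled receptor, was higher (0.34, adjusted p = 0.0157), and Grin3a, an NMDA receptor subunit that lowers calcium permeability (-0.34, adjusted p = 0.0159), and Grm7 (-0.27, adjusted p = 0.0172, limma) were lower.

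Of 19 scaffold proteins of the postsynaptic density, 1 was higher and 2 were lower, with a median of -0.10. Dlg2, the scaffold PSD-93, differed by -0.39 (adjusted p = 0.0183), Grip1, which binds GRIA2, by -0.15 (adjusted p = 0.0391), and Pick1, which also binds GRIA2, by 0.11 (adjusted p = 0.0456, limma). Of 12 kinases and phosphatases that act on the receptors, 2 were higher and 0 lower, with a median of -0.04. Prkaca, the catalytic subunit of protein kinase A, was 0.21 higher (adjusted p = 0.0241) and Camk2b 0.18 higher (adjusted p = 0.0372), while Camk2g was at -0.19 (adjusted p = 0.0517, limma). Of 10 genes of glutamate transport and turnover, 2 were higher and 3 lower, with a median of -0.14. Slc17a8, the vesicular transporter VGLUT3 (-0.41, adjusted p = 0.0157), and Slc1a2, the main astrocytic glutamate transporter (-0.49, adjusted p = 0.0189), were lower, and Got1, an aspartate aminotransferase, was higher (0.14, adjusted p = 0.0330, limma). In A+ against Aw mice, where 3.69% of all genes passed, 1 of these genes passed the test, Cnih3 at -0.21 (adjusted p = 0.000946, limma). Cnih3, an AMPA receptor auxiliary subunit, was chosen for naming after its value was seen.

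Markers of the cell types of the tissue were counted in the same diet test. Among all genes 29.4% passed it, 16% higher and 13.4% lower, and 44.1% had an unadjusted p below 0.05 (limma). Of 10 neuronal markers 3 were higher and 1 lower on TWD, with Stmn2 at 0.29, Thy1 at 0.28 and Tubb3 at 0.29, and the mean over the list ranged from 12.87 to 13.36 on STD and from 12.86 to 13.37 on TWD. Of 8 markers each, 2 were higher and 3 lower for astrocytes (Aldh1l1 0.24, Aqp4 -0.41, Slc4a4 -0.60), 5 higher and 0 lower for oligodendrocytes (Cldn11 0.24, Olig1 0.19, Mag 0.21), 4 higher and 1 lower for microglia (Aif1 0.45, C1qa 0.41, Tmem119 0.30), and 2 higher and 1 lower for endothelium (Ly6c1 0.39, Vwf 0.61, Slco1a4 -0.41). For principal cells, 0 of 6 CA1 markers passed, with 3 above and 3 below 0, 1 of 6 CA3 markers was higher (Bok 0.32, Spock1 -0.15, Coch -0.15) and 1 of 6 dentate granule markers was lower (Stxbp6 -0.46, C1ql2 0.24, Prox1 -0.25). Of 7 interneuron markers 2 were higher and 2 lower (Pvalb 0.40, Gad2 -0.62, Sst 0.27). Choroid plexus, tissue beside the hippocampus, varied most between mice: the mean of its 8 markers ranged from 6.37 to 10.67 on STD and from 5.96 to 10.37 on TWD, and 0 of 8 passed (limma), with 2 at an unadjusted p below 0.05 (Prlr -0.63, Kl -0.65, Sostdc1 -0.48). In A+ against Aw mice 3.69% of all genes passed and 15% had an unadjusted p below 0.05 (limma). There 6 of 8 microglial, 1 of 8 astrocyte and 1 of 8 oligodendrocyte markers were higher, and 1 of 6 CA1 and 1 of 6 dentate granule markers were lower (limma). Of the lists in which 0 markers passed there, the 10 general neuronal markers had a median of -0.04 with 1 at an unadjusted p below 0.05, and the 7 interneuron markers, all below 0, had -0.17 with 5. The 8 choroid plexus markers, all above 0, had 0.79 with 4, the 8 endothelial markers -0.03 with 0 and the 6 CA3 markers 0.02 with 1. The part of these cell types in the receptor differences was not tested.

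The genes whose values followed each member most closely over the 45 mice, are given as a description with Pearson r. Gria2 was followed by Ppp1r9a, the actin-binding neurabin (0.985), and Pclo, a presynaptic scaffold (0.98). Gria3 was followed by Nckap1 and Pls3 (0.978 each), Gria4 by Psd3 (0.979) and Rab3c (0.971), Grin2a by Cacna1e, a voltage-gated calcium channel (0.979), and Rab8b (0.971), and Grm5 by Dock4 (0.972) and Gabrb2, a GABA receptor subunit (0.965). Grin1 went with Nrgn, the calmodulin-binding neurogranin (0.97), and Ppp2r5d (0.967), whose transcripts have a GC content of 58.6% and 55.0%. For Gria1 the closest were Adcy2 (0.881) and Gabbr1 (0.859), for Grin2b Kcnt2 (0.851) and Frrs1l (0.821), and for Grm3 Slc39a10 and Lrrc4c (0.89 each). The genes that followed Gria2, Gria3 and Gria4 had transcript GC contents from 42.8% to 47.8%.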

How the data were processed

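Poly(A) RNA of the hippocampus of 45 mice was sequenced as short single reads. Trimming was done by the authors with Trimmomatic 0.38, ribosomal and mitochondrial sequence was taken out with Bowtie 2, and kallisto 0.44.0 assigned the remainder to mouse transcripts, summed per gene. The deposited values are on a log2-like scale: the authors dropped genes of low count, used the variance-stabilizing transformation in DESeq2 1.22.2 and took out batch with limma 3.38.3. That step did not hold the groups in place, so batch was kept as a term in the tests reported, and left out in 1 alternative. Depth per mouse is unknown from these values, and precision rests on the spread between mice.

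limma 3.58.1 in R 4.3.3 was used for tests across all 15897 genes (mean trend, two-sided, Benjamini-Hochberg, adjusted p below 0.05). Diet, A+ and T+ were tested with main effects only plus batch, other contrasts in a model of the 8 groups plus batch. Subunit log ratios were tested by exact permutation within a genotype and by 100000 permutations over all genotypes. Descriptions were computed in Python 3.11.15. The model fits were tested on simulated data with independent noise for each gene, which leaves out the variation shared between genes seen here. Coordinates, transcript length and GC content are from GENCODE M21 (GRCm38), found for 98.729% of genes, and promoters from RefSeq (GRCm38.p6) for 4 of 9 members.

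The members and the gene lists were chosen with earlier results of these data known. Named are all 9 members, at most 3 genes of each list with the smallest adjusted p for diet, and the 2 genes of highest correlation with each member. The alternatives tried were another normalization, a filter on low values, no mean trend, no batch term, each batch alone, a residual component as covariate, copied genes counted once, only the groups compared, and each mouse left out. Replicate numbers follow the order of the samples and pair no mice. A sequence and a listed gene that the rule would name are not reported here.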

Additional observations from a re-analysis of the deposited data

Results flagged for a closer look

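Of the 72 combinations of 9 genes and 8 groups, 2 held a mouse that stood far from the others of its group by Dixon's test, where chance gives about 1 in 20. Grin1 was 13.85 in A+T+/TWD replicate 1, with the nearest mouse of that group at 13.18, and this mouse also had the lowest Gria2, Gria3, Gria4, Grin2a and Grin2b of all 45. Gria1 was 14.15 in AwT+/STD replicate 2, with the nearest at 13.88.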

How the results depend on the processing

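Depth is unknown from these values, so the limits are those of the spread between mice. For 12 of 16 comparisons, 0 members passed under every alternative run, left-out mice included. The cause of the changes below was not tested, and the length and GC alternative was chosen after seeing the data. The score of the residual component keeps group differences, so a fit with it can remove them by construction. For diet over all genotypes 8 members passed after quantile normalization (30.4% of all genes), Gria1 among them. In batch 0 alone and with the residual component as a covariate 0 passed (0% of all genes). After removal of the length and GC trend 3 passed (14.5% of all genes). For diet within AwTw 0 passed in batch 0 alone, after quantile normalization, without a mean trend and with the component. The same held with only the groups compared and after removal of the trend. At most 0.00629% of all genes passed in these settings. In batch 1 alone 7 members passed (25% of all genes). For A+ against Aw 3 passed with the component (6.81% of all genes) and 2 after removal of the trend (5.74%). For A+T+ against AwTw on STD 1 passed with the component, Grin1 at -0.32 (adjusted p = 0.0347, limma), against 0.01 without it. The share of all genes that passed in that fit is not given here, so this count cannot be set against a background.

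Some differences turned sign without passing the test. For diet over all genotypes Gria1 was 0.0286 in batch 0 and 0.0521 after removal of the trend, and with the component Grin2a was 0.0404 and Grin2b 0.013. Within AwTw in batch 0, Gria2 was 0.034, Gria3 0.037, Gria4 0.057, Grm3 0.039 and Grm5 0.11. Within AwTw with the component, Gria2 was 0.084, Gria3 0.065, Gria4 0.0076, Grin2b 0.0072 and Grm5 0.0048, and after removal of the trend Gria1 was 0.0995. With the longest transcript the level per kb was 11.36 for Gria1, 7.97 for Gria3, 7.40 for Grin2a and 7.47 for Grin2b.

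Of the log ratios over all genotypes, Gria1 minus Gria2 was 0.17 in batch 0 and 0.81 in batch 1, Grin2b minus Grin1 -0.34 and -0.83, and Grm3 minus Grm5 0.29 and 0.41, none past the test within a batch (adjusted p = 0.0816 for each in batch 1, permutation test). Grin2a minus Grin2b turned to 0.10 in batch 0. Within genotypes in batch 0, Gria1 minus Gria2 turned to -0.18 in AwTw and -0.29 in A+T+, Grin2a minus Grin2b to 0.28 in AwT+ and 0.26 in A+Tw, Grin2b minus Grin1 to 0.14 in A+T+ and Grm3 minus Grm5 to -0.0692 in AwTw. Grin2a minus Grin2b in AwT+ was 0.0092 after quantile normalization.

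With 1 mouse left out, the members that passed numbered 4 (without AwTw/TWD replicate 3) to 7 for diet over all genotypes, 0 to 8 within AwTw and 0 to 1 for A+ against Aw. The share of all genes that passed moved too, from 17.4% (without AwTw/TWD replicate 3) to 37.2% (without A+Tw/STD replicate 2) for diet over all genotypes. It ranged from 0% to 38.2% within AwTw and from 3.25% to 4.67% for A+ against Aw. The log ratios over all genotypes ranged from 0.46 to 0.587 for Gria1 minus Gria2, from -0.687 to -0.538 for Grin2b minus Grin1 and from 0.320 to 0.392 for Grm3 minus Grm5. Within A+T+, Gria1 minus Gria2 ranged from -0.156 to 0.432 and Grin2b minus Grin1 from -0.421 to 0.115, both turned by A+T+/TWD replicate 1. Within AwT+, Grin2a minus Grin2b ranged from -0.114 to 0.194, highest without AwT+/TWD replicate 3.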
